A study of Mus musculus with 30 samples.

Results

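Ribosome biogenesis is described here through 33 genes, the transcription factor Myc and 32 genes whose products act in the nucleolus, measured in mammary tumours of 30 mice. The list named 34 genes by function, and for each gene the transcript with the highest mean was taken. Noc2l was not analysed here. The 33 genes stand among 20842 named genes, of which 13610 were tested because they averaged 1 RPKM or more, and all 33 were among them. RPKM is a read count scaled to transcript length and library size, so levels can be compared between genes.

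All 30 tumours belong to 1 group. Each came from a backcross animal, written ((MOLF x PyMT) x FVB) in the labels, and each animal gave 1 tumour and 1 library of poly-A selected RNA. MOLF is a wild-derived inbred strain and FVB a laboratory strain, and PyMT is the polyoma middle T oncogene, which drove the tumours in all animals. The labels give neither the promoter of PyMT nor the age of the animals, and no untreated or normal tissue is among the samples, so that every comparison is a relation across the 30 tumours. Animals are called by the numbers in their labels.

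A ribosome begins in the nucleolus, where RNA polymerase I transcribes the long precursor of the ribosomal RNAs. Small nucleolar particles then modify bases of that precursor, and a sequence of assembly factors folds it, cuts it and joins it to ribosomal proteins to give the small and the large subunit. MYC is a transcription factor that raises the output of many of these genes together, and high nucleolar activity is a long-known feature of growing tumour cells. MYC pairs with MAX and binds the hexamer CACGTG, known as an E-box.

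The promoters of 3 genes that rose with Myc (below) are shown because they differ in that hexamer. The set of RefSeq promoters used here, of build GRCm38.p6, held 25 of the 33 genes. It did not hold Myc, Rpf1, Fbl, Npm1, Bop1, Rrs1, Rrp12 and Gnl2. The 120 bases before the annotated start are given 5′ to 3′ on the strand of the gene, all 3 on the plus strand, with CACGTG in capitals. They lie at chr6:125131763-125131882 for Nop2, chr2:130274292-130274411 for Nop56 and chr2:112261806-112261925 for Nop10.
Nop2: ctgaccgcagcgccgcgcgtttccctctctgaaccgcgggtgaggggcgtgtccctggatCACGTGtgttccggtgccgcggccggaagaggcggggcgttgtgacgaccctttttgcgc
Nop56: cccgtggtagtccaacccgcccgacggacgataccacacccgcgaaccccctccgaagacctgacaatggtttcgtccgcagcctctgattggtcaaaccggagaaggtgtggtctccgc
Nop10: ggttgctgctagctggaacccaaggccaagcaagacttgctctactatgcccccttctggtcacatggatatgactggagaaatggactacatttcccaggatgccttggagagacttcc
The Nop2 promoter held the hexamer once, starting at position -60 from the annotated start, and the other 2 promoters did not hold it in these bases. CACGTG reads the same on both strands, so 1 search covers both. In the 300 bases from 250 before to 50 after the start, 7 of the 25 genes (28%) held it, namely Nop2, Pes1, Rpf2, Wdr43, Utp18, Utp20 and Mybbp1a. The share was 20% of 90 other ribosome biogenesis genes and 11.36% of 10818 tested genes with a promoter in the set. Counted by promoter instead of by gene, it was 28.57% of the 28 promoters of the 25 genes and 7.15% of all 32851 promoters in the set. These are matches of letters in a window, without a test and without a measurement of binding.

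The most abundant of the genes was Npm1, which encodes nucleophosmin, a chaperone that forms much of the nucleolar matrix. Npm1 averaged 713 ± 226 RPKM (SD, n = 30), with 421 RPKM in its lowest tumour (animal 4036), a median of 687 RPKM and 1262 RPKM in its highest (animal 4438). Next came Ncl (nucleolin, which binds the precursor RNA) with a mean of 117 RPKM, Nhp2 with 98.4 RPKM and Fbl with 86.6 RPKM. At the low end were Utp20 with 10.8 RPKM, Rrs1 with 12.8 RPKM and Heatr1 with 13.01 RPKM. The median of the 33 means was 30.7 RPKM, against 11.7 RPKM over all tested genes. No gene of the list was at 0 in any tumour.

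Myc itself averaged 33.4 ± 8.82 RPKM (SD, n = 30). It had 20.7 RPKM in animal 4036, a median of 32.4 RPKM and 52.8 RPKM in animal 4438, and animals 4262 and 4150 followed from above with 50.2 and 49.2 RPKM. Its highest level was thus 2.55 times its lowest. Of its paralogs, Mycn averaged 0.17 RPKM and Mycl 0.43 RPKM, below the filter.

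The spread between tumours was modest. The highest tumour exceeded the lowest by 1.53-fold for Nop14, a small subunit factor, and by 3.97-fold for Nhp2, a core protein of box H/ACA particles, with a median of 2.23-fold. The median SD of log2(RPKM + 1) was 0.25 over the 33 genes and 0.27 over all tested genes. The largest SDs were those of Npm1 (0.44), Nhp2 (0.40) and Fbl (0.37).

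**Figure D1:**
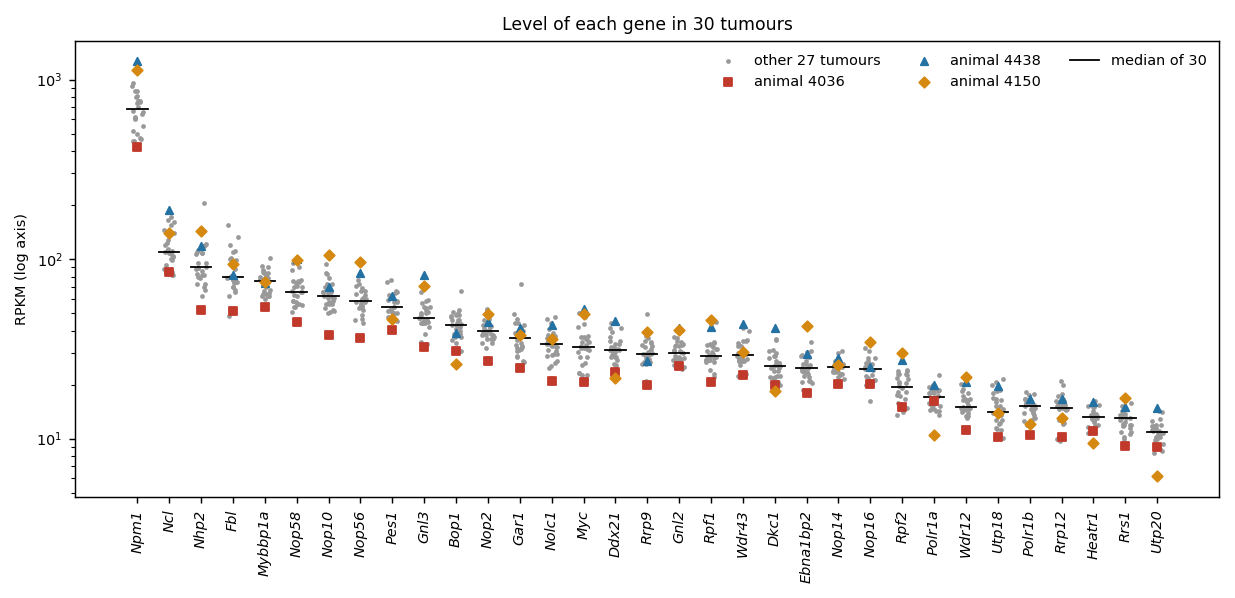
Level of the 33 genes in RPKM (log axis), 1 point per tumour, ordered by mean, with the median as a line and 3 tumours marked. Animal 4036 (squares) was lowest for 18 genes, animal 4438 (triangles) was highest for 10, and animal 4150 (diamonds) was highest for 8 and lowest for 6.

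A few tumours set the ends of most ranges. Animal 4036 lay below the median for 33 of 33 genes, by 0.07 (Polr1a) to 0.78 (Nhp2) on the log2 scale, with a median difference of -0.47, against -0.02 over all tested genes. Animal 4438 lay above the median for 30 genes (median difference 0.35, largest for Npm1 at 0.88), and animal 4030 for 31 (median 0.29, largest for Nhp2 at 1.18). The median difference over all tested genes was 0.02 in animal 4438 and -0.05 in animal 4030. Animals 3273 and 4144 lay below the median for 30 and 31 genes, where 61.5% and 48.6% of all tested genes lay below it. The 33 genes summed to 1271 RPKM in animal 4036, to 1931 RPKM in the median tumour and to 2832 RPKM in animal 4438.

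Composition moved with those levels in animals 4036 and 4438 but not in animal 4030, and its part in them was not tested. In animal 4036 the 13 stroma matrix markers summed to 6768 RPKM (median tumour 1329 RPKM), 4 adipocyte markers to 1274 RPKM (median 92.4 RPKM) and 4 macrophage markers to 130 RPKM (median 44.0 RPKM), each the highest of the 30 tumours. The same tumour had the lowest sums of 7 epithelial markers (1354 RPKM, median 1961 RPKM) and 18 proliferation markers (460 RPKM, median 751 RPKM). Animal 4438 had the lowest stroma matrix sum (372 RPKM). Animal 4030 had the highest mean of the 33 standardised genes beside 489 RPKM of Col1a1 (median 332 RPKM). Its Epcam was 352 RPKM (median 425 RPKM). Animal 3273, low for most of the 33 genes, had the highest sum of 4 skeletal muscle markers (9939 RPKM, median 130 RPKM). That tumour also had the highest sum of 5 endothelial markers (73.7 RPKM, median 36.9 RPKM) and the lowest Epcam (313 RPKM). No marker of these lists was at 0 in all tumours, and Epcam, an epithelial surface protein, lay between 313 and 711 RPKM. In bulk tissue, fewer cells of a type and less RNA per cell cannot be told apart.

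The genes moved together across tumours, though not all of them. The mean Pearson correlation over the 528 pairs was 0.459 on the log2 scale, against 0.019 over pairs of all tested genes, and 34 pairs were below 0. It was 0.523 in the 14 deeply sequenced libraries and 0.435 in the 16 shallow ones, and 0.374 without animals 4036 and 4438. The same measure was 0.306 for 103 other ribosome biogenesis genes, 0.61 for 22 ribosomal protein genes and 0.681 for 18 proliferation genes. The closest pair was Nop58 and Gnl3 (r = 0.923), and the pair farthest apart was Bop1 and Gnl2 (r = -0.355). The points of each correlation share libraries and their depth, and no test was attached.

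Nolc1, a chaperone of small nucleolar particles, followed the mean of the other genes most closely (r = 0.90), ahead of Nhp2 (0.877) and Wdr43 (0.875). Polr1a, the largest subunit of RNA polymerase I, followed it least (0.139), and Bop1 (0.318), Utp20 (0.325), Heatr1 (0.363) and Polr1b (0.381) were also low. Utp20 and Heatr1, both large scaffold proteins of small subunit assembly, followed each other (r = 0.89, with 0.952 in the deep and 0.899 in the shallow libraries). Utp20 and Polr1a had r = 0.698. Myc had r = 0.463 with the mean of the other genes, between r = 0.698 for Rrs1 and r = -0.132 for Utp20 among single genes.

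**Figure D2:**
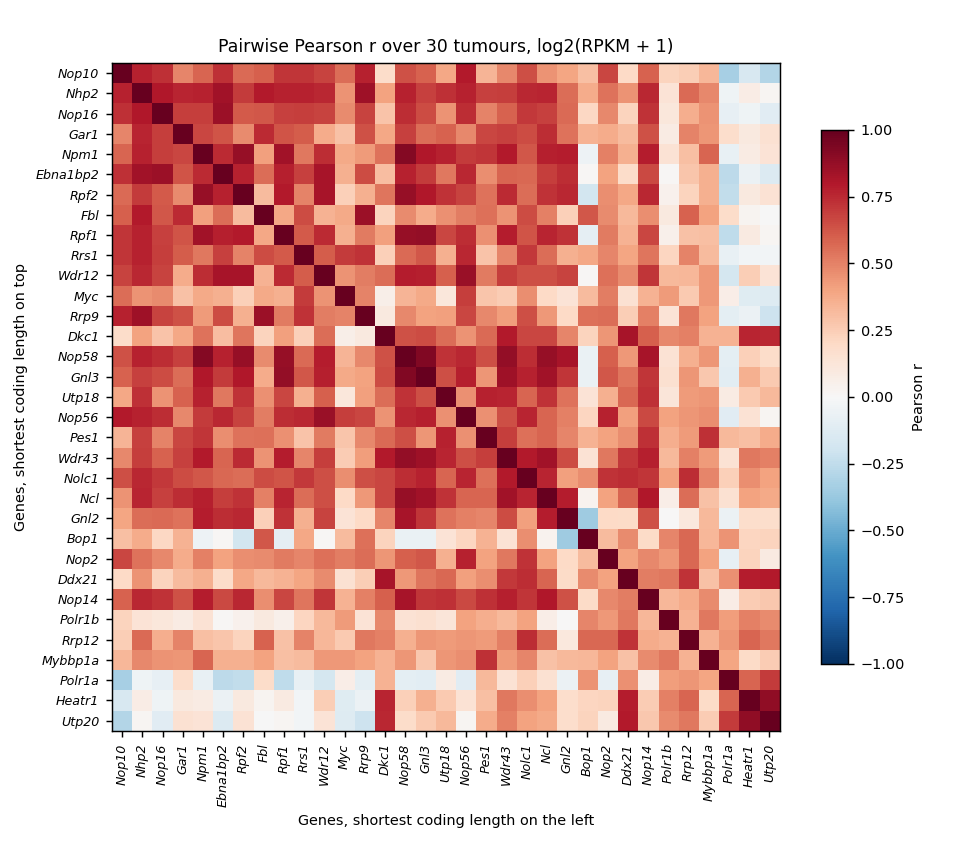
Pearson r over 30 tumours for each pair of the 33 genes, on log2(RPKM + 1), with genes ordered by coding length from short to long. Most pairs are positive, while Polr1a, Heatr1 and Utp20 at the long end are red with each other and pale or blue with most short genes.

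Proteins that sit in 1 complex did not always have the closest mRNA levels. Among the core proteins of box C/D particles, which guide methylation of the ribosomal RNA precursor, Nop56 and Nop58 had r = 0.756, and the methyltransferase Fbl had r = 0.514 with Nop56 and 0.47 with Nop58. In box H/ACA particles, which guide pseudouridine formation, Nhp2 had r = 0.767 with Nop10 and 0.764 with Gar1. Dkc1, the pseudouridine synthase of those particles, had r = 0.4 with Nhp2, 0.389 with Gar1 and 0.182 with Nop10, the last being 0.4 without animal 4150. The mean r was 0.58 within the box C/D genes and 0.499 within the box H/ACA genes, against 0.459 over all pairs of the 33. Pes1, Bop1 and Wdr12 form the PeBoW complex of large subunit maturation. Pes1 had r = 0.519 with Wdr12 and 0.346 with Bop1, whereas Bop1 and Wdr12 had r = 0.013 (0.457 in the deep and -0.374 in the shallow libraries). Polr1a and Polr1b, the 2 large subunits of RNA polymerase I, had r = 0.419.

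Coding length ran alongside these differences. The levels in animal 4150 departed from the median by 0.76 for Nop10 (coding length 192 bases) and 0.72 for Npm1 (876 bases), and by -0.70 for Bop1 (2196 bases) and -0.73 for Utp20 (8367 bases). Over all tested genes the median departure in this tumour was 0.26 for coding lengths under 1000 bases, -0.02 from 1000 to 2000 bases, -0.23 from 2000 to 4000 bases and -0.36 over 4000 bases. Over the 33 genes it was 0.64, 0.54, 0.05 and -0.54 in the same classes of 8, 11, 10 and 4 genes. Polr1a, Heatr1, Utp20 and Mybbp1a are the 4 longest. The part of length in the correlations above was not tested.

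**Figure D3:**
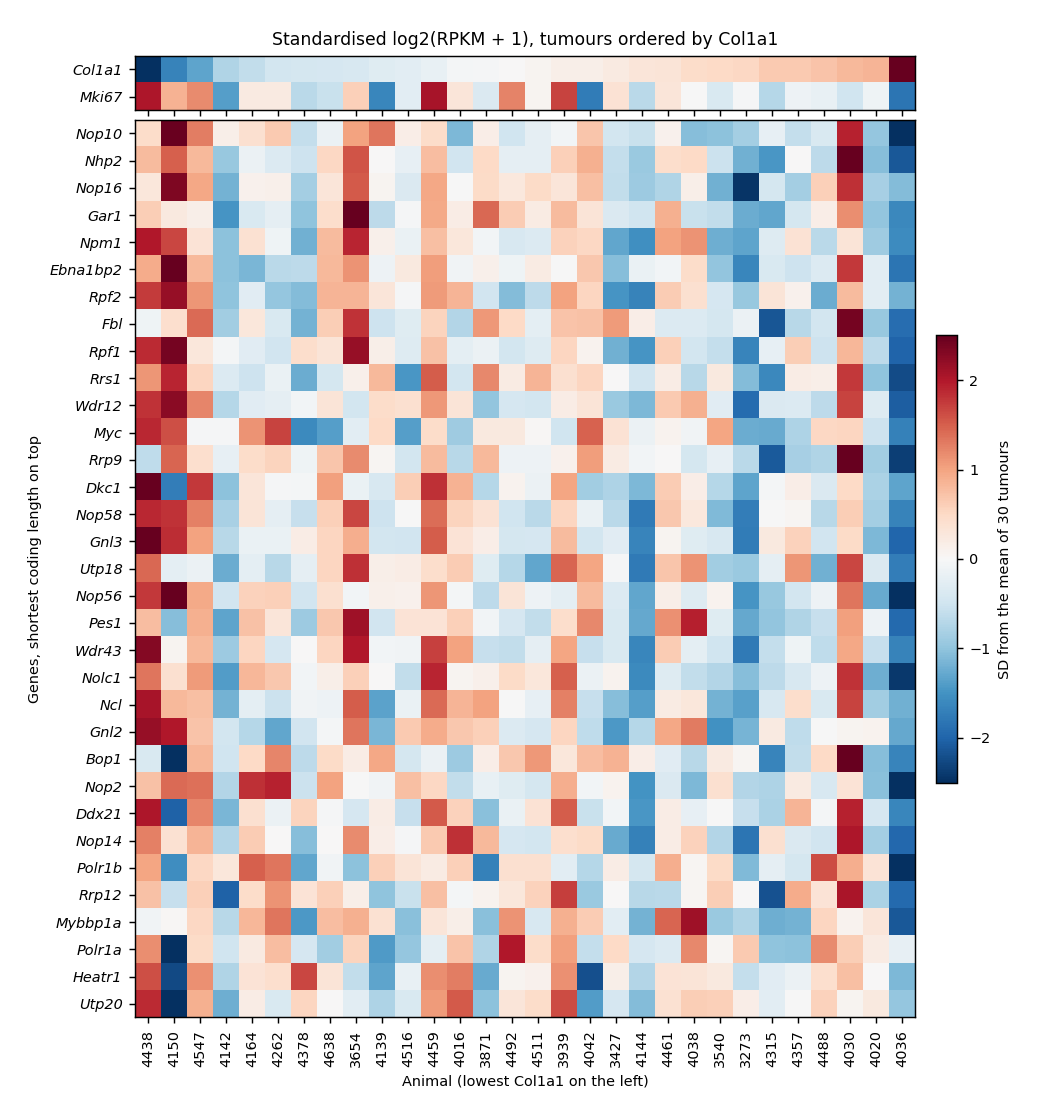
Level of Col1a1, Mki67 and the 33 genes in each tumour, as SDs from the mean of log2(RPKM + 1), with tumours ordered by Col1a1 and genes by coding length. Animal 4036 at the right end, with 1718 RPKM of Col1a1, is low throughout, and animal 4150, second from the left, is high for short genes and low for long ones.

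The relation to stroma was measured against Col1a1, a chain of the main fibrillar collagen, and the relation to proliferation against Mki67, a nuclear protein of cycling cells, in 1 fit that also held insert size. Slopes are changes in log2(RPKM + 1) per SD of the log2 level of Col1a1 or Mki67, with their standard errors. Col1a1 had 80.6 RPKM in animal 4438, a median of 332 RPKM and 1718 RPKM in animal 4036, and the tumour below that one had 497 RPKM. Mki67 had 17.2 RPKM in animal 4036, a median of 27.4 RPKM and 47.9 RPKM in animal 4459. Of the other 17 proliferation markers, 1 (Top2a, 0.23 ± 0.06, limma adjusted p = 0.0364) was higher with Mki67 in this fit and none was lower, with a median slope of 0.14 and 1 slope below 0. Over all tested genes, 2.4% were higher with Mki67 and 1.03% lower.

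At equal Mki67, tumours with more Col1a1 had less RNA of the box C/D proteins Nop56 and Nop58, the box H/ACA protein Nop10, the nucleolar chaperone Npm1 and the large subunit factors Gnl3, Rpf1 and Ebna1bp2. These 7 of 33 genes passed the test in the lower direction and none in the higher (limma, adjusted p under 0.05, and none of the higher slopes had an unadjusted p under 0.05). Of all tested genes, 4.2% were lower and 4.88% higher. Slopes were below 0 for 28 of the 33 genes, and their median was -0.08, against -0.01 over all tested genes. That median was -0.05 without animal 4036 and -0.04 without animals 4036 and 4438. Nop56, Nop58, Gnl3 and Rpf1 had been named in an earlier analysis of these tumours as falling with stroma, so their calls are no independent evidence, and 3 of the other 29 genes were called.

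Nop56 had 36.2 RPKM in animal 4036, a median of 58.3 RPKM and 96.4 RPKM in animal 4150. Its slope on Col1a1 was -0.19 ± 0.04 (SE, limma adjusted p = 0.00671), with -0.19 in the deep and -0.20 in the shallow libraries. The 2 tumours with the lowest Col1a1 had the 2 highest levels of Nop56, and the tumour with the highest Col1a1 had the lowest. Nop10 had 37.7 RPKM in animal 4036, a median of 62.1 RPKM and 106 RPKM in animal 4150. Its slope was -0.23 ± 0.05 (limma adjusted p = 0.00462), the steepest of the 33, with -0.26 in the deep and -0.15 in the shallow libraries. Npm1, with the levels given above, had a slope of -0.22 ± 0.07 (limma adjusted p = 0.0486).

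Gnl3, the GTPase nucleostemin, had 32.4 RPKM in animal 4036, a median of 46.8 RPKM and 82.0 RPKM in animal 4438, and a slope of -0.15 ± 0.04 (limma adjusted p = 0.0171). Nop58 had 43.7 RPKM in animal 4144, a median of 65.3 RPKM and 101 RPKM in animal 4438, and a slope of -0.17 ± 0.05 (limma adjusted p = 0.0229). Both were high in animal 4438, the tumour with the least Col1a1. Rpf1 had a slope of -0.17 ± 0.04 (limma adjusted p = 0.0117) and Ebna1bp2 of -0.13 ± 0.04 (limma adjusted p = 0.0495), 2 factors of large subunit assembly with medians of 29.01 and 24.6 RPKM.

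Myc had a slope of -0.19 ± 0.07, as steep as that of Nop56 but with a larger error, and did not pass (limma adjusted p = 0.0772). Nop2, a methyltransferase of the large subunit RNA, and Wdr12 lay just outside the threshold, with slopes of -0.11 ± 0.04 and -0.12 ± 0.04 (limma adjusted p = 0.0510 and 0.0518). The 5 genes with slopes above 0 were Polr1a (0.08), Utp20 (0.07), Heatr1 (0.04), Rrp12 (0.02) and Ddx21 (0.01), and none of them passed. Slopes ran with coding length over all tested genes too, with medians of -0.06 under 1000 bases, -0.01 from 1000 to 2000, 0.03 from 2000 to 4000 and 0.09 over 4000, against -0.13, -0.12, -0.07 and 0.06 for the 33 genes. The part of length in the slopes was not tested.

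Markers of some other cell types moved along the same slope. In this fit 12 of 12 other stroma matrix markers, 4 of 5 endothelial markers and 3 of 4 macrophage markers were higher with Col1a1 and none lower, while 2 of 7 epithelial markers, Epcam (-0.14 ± 0.04, limma adjusted p = 0.0241) and Cldn7 (-0.19 ± 0.05, limma adjusted p = 0.0153), and 2 of 17 proliferation markers were lower and none higher. The shares over all tested genes were 4.88% higher and 4.2% lower. Of 4 T cell markers, Lck was lower (-0.30 ± 0.08, limma adjusted p = 0.0174), and no adipocyte, skeletal muscle, B cell or milk marker passed. With Epcam, the milk gene Csn2 and the muscle gene Acta1 added to the fit, 2 of the 33 genes were lower, Nop10 and Nop56 (limma, 14 at an unadjusted p under 0.05, where 1.93% of all tested genes were lower), and the median slope was -0.09. Beyond that fit, the part of these cell types in the slopes was not tested.

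The count rested on single tumours. It was 2 without animal 4036 (Gnl3 and Nop56), 3 without animal 4150 and 14 without animal 4030. With ranks in place of levels, within the 14 deep and within the 16 shallow libraries it was 0, with 8, 10 and 9 genes lower at an unadjusted p under 0.05, and the share of all tested genes called lower was then 0.419%, 0.0882% and 0.0661%. Without Mki67 in the fit it was 19, where 7.61% of all tested genes were lower.

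**Figure D4:**
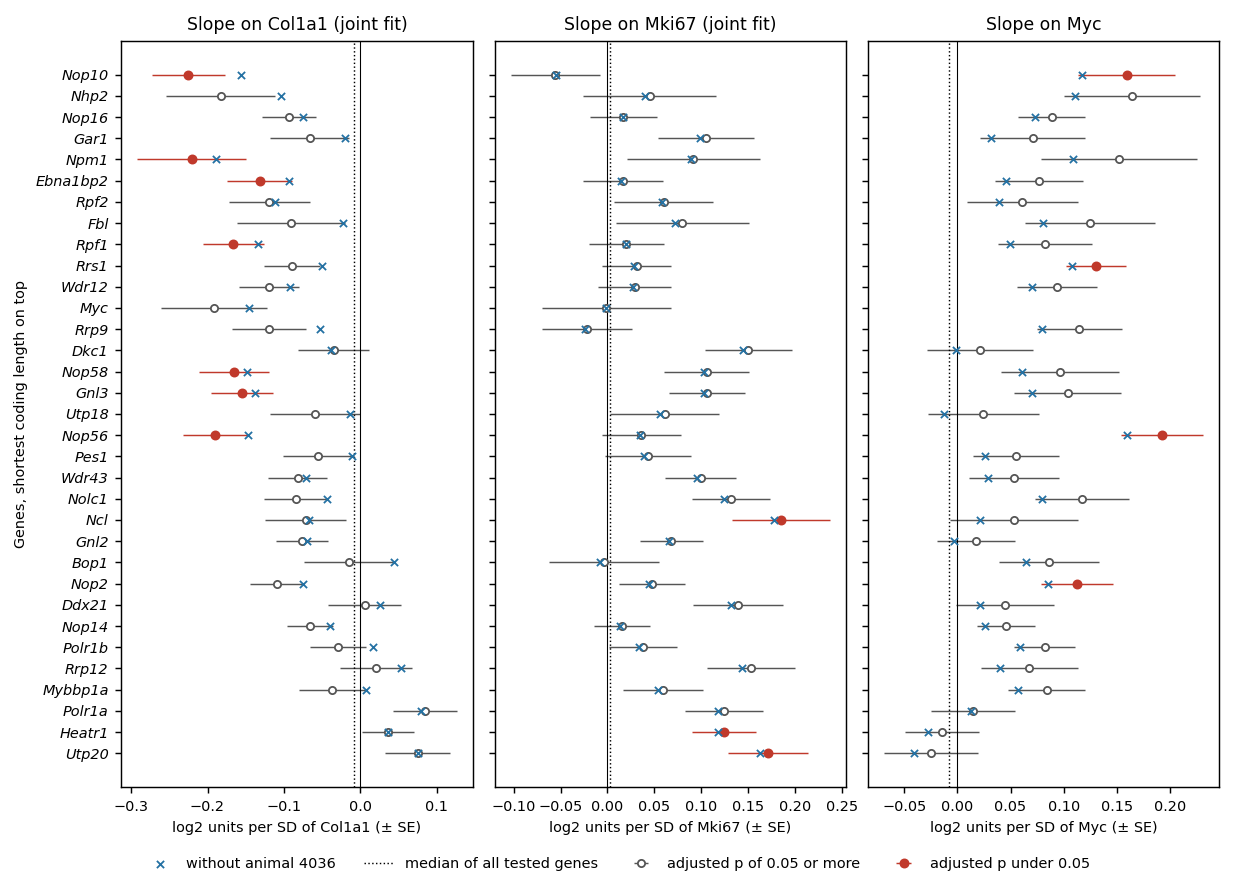
Slopes of the 33 genes on Col1a1 and Mki67 (fitted together) and of 32 genes on Myc, in log2 units per SD with standard errors, genes ordered by coding length. Filled points passed the test (7, 3 and 4 genes), crosses give the slope without animal 4036, and the dotted line is the median of all tested genes.

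At equal Col1a1, tumours with more Mki67 had more RNA of the small subunit scaffolds Utp20 and Heatr1 and of nucleolin. These 3 of 33 genes passed in the higher direction and none in the lower (none at an unadjusted p under 0.05), and 12 were higher at an unadjusted p under 0.05. Of all tested genes, 2.4% were higher and 1.03% lower. The median slope was 0.06, against 0.00 over all tested genes, and it was 0.04 without animal 4142, 0.02 in the deep and 0.11 in the shallow libraries. Slopes ran with coding length here too, with medians over all tested genes of -0.03 under 1000 bases, 0.00 from 1000 to 2000, 0.04 from 2000 to 4000 and 0.09 over 4000, against 0.05, 0.04, 0.08 and 0.12 for the 33 genes. Utp20 and Heatr1 have the longest coding sequences of the 33, at 8367 and 6429 bases, and the part of length was not tested.

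Utp20 had 6.18 RPKM in animal 4150, a median of 10.9 RPKM and 14.8 RPKM in animal 4438. Its slope on Mki67 was 0.17 ± 0.04 (limma adjusted p = 0.0241), with 0.16 in the deep and 0.22 in the shallow libraries. Animal 4150 stood apart, with the lowest Utp20 beside the sixth highest Mki67 (35.2 RPKM). Heatr1 had 9.45 RPKM in animal 4150, a median of 13.1 RPKM and 16.2 RPKM in animal 4378, and a slope of 0.12 ± 0.03 (limma adjusted p = 0.0385). Ncl had 81.2 RPKM in animal 4144, a median of 110 RPKM and 189 RPKM in animal 4438, and a slope of 0.18 ± 0.05 (limma adjusted p = 0.0451).

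Next to the threshold were Rrp12, which in yeast takes part in the export of subunit precursors, with a slope of 0.15 ± 0.05 (limma adjusted p = 0.0613), Dkc1 with 0.15 ± 0.05 (0.0627) and Nolc1 with 0.13 ± 0.04 (0.0666). Myc had a slope of -0.00 ± 0.07 (limma adjusted p = 0.995). The count of 3 was 0 without animal 3939, 4042, 4142 or 4459, 1 without animal 4139, 4438 or 4547, 6 without animal 4030 and 7 without animal 4150. It was 0 within the deep and within the shallow libraries, where no tested gene was called and 4 and 10 genes were higher at an unadjusted p under 0.05, and 14 without Col1a1 in the fit, where 5.53% of all tested genes were higher. With the means of the stroma and proliferation lists in place of the 2 genes, Utp20, Heatr1 and Ncl all lost their call, and 6 others passed (Bop1, Ddx21, Dkc1, Nolc1, Nop2 and Rrp12).

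The genes also differed in how much of their variation Col1a1, Mki67 and insert size took up together. The share of variance was 65.4% for Gnl3, 63.7% for Nop58 and 57.8% for Nop56. Bop1, at the other end, had 0.711%. The median was 42.3% over the 33 genes and 20.5% over all tested genes. Bop1 had 26.1 RPKM in animal 4150, a median of 43.0 RPKM and 66.0 RPKM in animal 4030, so that its low share went with a spread (SD 0.26 log2 units) near the median of the group.

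With Myc as the measure, 4 of the other 32 genes were higher in tumours with more Myc and none was lower (none at an unadjusted p under 0.05), while 3.65% of all tested genes were higher and 3.53% lower. They were Nop56, the large subunit factors Rrs1 and Nop2, and Nop10. The median slope was 0.08 over the 32 genes and -0.01 over all tested genes. It was 0.05 without animal 4036, 0.05 without animal 4438, 0.01 without both and 0.02 with Col1a1 and Mki67 in the fit. Only Utp20 (-0.02) and Heatr1 (-0.01) had slopes below 0, which were above 0 after quantile normalization.

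Nop56 had a slope on Myc of 0.19 ± 0.04 (limma adjusted p = 0.00703), with 0.21 in the deep and 0.17 in the shallow libraries. Rrs1, which in yeast brings the 5S particle into the large subunit together with Rpf2, had 9.11 RPKM in animal 4036, a median of 12.98 RPKM and 16.8 RPKM in animal 4150, and a slope of 0.13 ± 0.03 (limma adjusted p = 0.00911). Both were lowest in the tumour with the least Myc and highest in animal 4150, which was among the 3 highest for Myc. Nop10 had a slope of 0.16 ± 0.05 (limma adjusted p = 0.0352), with 0.25 in the deep and 0.09 in the shallow libraries. Nop2 had 27.1 RPKM in animal 4036, a median of 39.6 RPKM and 53.0 RPKM in animal 4262, and a slope of 0.11 ± 0.03 (limma adjusted p = 0.0398). Of the 3 with a promoter in the RefSeq set, printed above, 1 held the hexamer.

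The most abundant gene, Npm1, had a slope on Myc of 0.15 ± 0.07, and the box C/D methyltransferase Fbl of 0.12 ± 0.06, and neither passed (limma adjusted p = 0.187 and 0.192). The count of 4 was 1 without animal 4036 (Nop56), 2 without animal 4016, 4164 or 4262 and 7 without animal 4638. Within the deep libraries it was 2, where 1.98% of all tested genes were higher, with 11 genes higher at an unadjusted p under 0.05. Within the shallow libraries it was 0, where no tested gene was called, with 3 genes higher at an unadjusted p under 0.05. With Col1a1 and Mki67 added to the fit it was 0, with 3 genes higher at an unadjusted p under 0.05, and 13 of all tested genes (0.0955%) were higher with Myc.

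**Figure D5:**
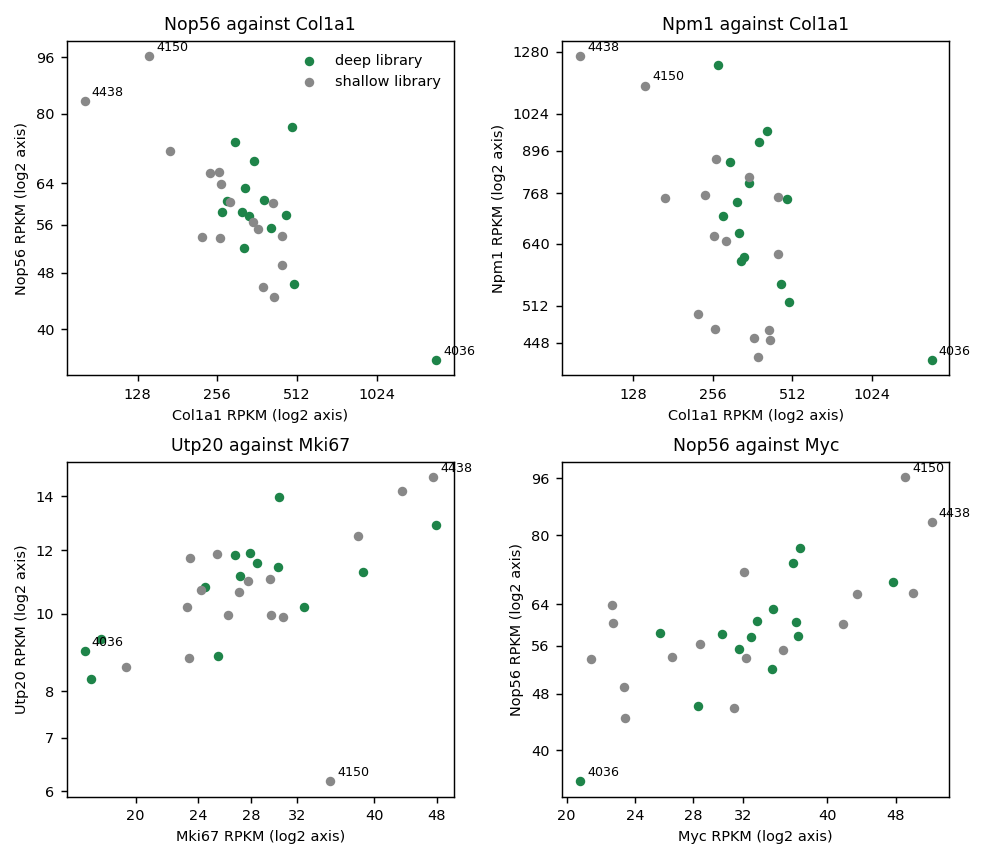
Levels in 30 tumours in RPKM on log2 axes, for Nop56 and Npm1 against Col1a1, Utp20 against Mki67 and Nop56 against Myc, coloured by depth class, with animals 4036, 4438 and 4150 named. Animal 4036 lies far to the right on Col1a1, and animal 4150 has the lowest Utp20 (6.18 RPKM).

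Myc, Col1a1 and Mki67 were themselves related, which bears on the fits above. Myc and Col1a1 had r = -0.495 (permutation p = 0.00443, adjusted over 3 pairs 0.00664) and rho = -0.277 (permutation p = 0.138, adjusted 0.138). Without animals 4438 and 4036 r was -0.228, so the relation by r rested on those tumours. Within the deep and the shallow libraries r was -0.599 and -0.556, but the deep ones hold animal 4036 and the shallow ones animal 4438. Col1a1 and Mki67 had r = -0.513 (permutation p = 0.00391, adjusted 0.00664) and rho = -0.347 (permutation p = 0.0611, adjusted 0.138), with r = -0.215 without animals 4036 and 4438, and -0.469 and -0.554 within the deep and the shallow libraries. Myc and Mki67 had r = 0.284 (permutation p = 0.13, adjusted 0.13) and rho = 0.284 (permutation p = 0.128, adjusted 0.138). That r was 0.0597 without the same 2 tumours, and 0.0229 in the deep and 0.486 in the shallow libraries. All p-values are two-sided.

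Other genes of ribosome biogenesis, 103 with a value among 104 listed, were tested in the same fits. With Col1a1, 18 were lower and none higher (limma, adjusted p under 0.05; 4.2% and 4.88% of all tested genes), with 88 slopes below 0. The 3 with the smallest p were the methyltransferase Emg1 (-0.21 ± 0.04, adjusted p = 0.00255), the exosome subunit Exosc1 (-0.14 ± 0.03, 0.0123) and Pak1ip1 (-0.11 ± 0.03, 0.0181), a factor of large subunit assembly. With Mki67, 3 of the 103 were higher and 1 was lower, shares near the 2.4% and 1.03% of all tested genes. They were the exosome subunits Exosc7 (0.16 ± 0.04) and Dis3 (0.14 ± 0.04) and the large subunit factor Sdad1 (0.14 ± 0.03), and in the lower direction the RNA polymerase I subunit Znrd1 (-0.17 ± 0.05). With Myc, 17 were higher and none lower, against 3.65% and 3.53% of all tested genes, led by the assembly factors Ppan (0.23 ± 0.04, limma adjusted p = 0.00649), Noc4l (0.17 ± 0.04, 0.00981) and Emg1 (0.16 ± 0.04, 0.0132). The most abundant of these genes were Nop53 with 141 RPKM, Rrp1 with 107 RPKM and Fcf1 with 101 RPKM.

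Among ribosomal protein genes, 10 of 22 were lower with Col1a1 and none higher, and 9 of 22 were higher with Myc and none lower (Rplp1 at 0.27 ± 0.05, limma adjusted p = 0.00703). With Mki67 none of the 22 passed, and 19 slopes were below 0, with a median of -0.07 against 0.06 for the 33 genes. The most abundant of the 22 were Rplp1, Rps14 and Rpl32, with means of 1662, 1438 and 1435 RPKM. The sum of the 22 was highest in animal 4150 (33787 RPKM, median 20466 RPKM). Known Myc targets outside the nucleolus were lower with Col1a1 in 3 of 19 cases (Nme1, Eif4a1 and Apex1) and higher with Myc in 4 (Srm, Shmt2, Nme1 and Apex1). Beside both lists, 4.2% of all tested genes were lower with Col1a1 and 3.65% higher with Myc. With Col1a1 and Mki67 added to the Myc fit, 13 of all tested genes (0.0955%) were higher with Myc. Not all Myc calls of these lists and of the other biogenesis genes can therefore have held in that fit. Rplp1, Rps14 and other ribosomal protein genes have many near-identical copies in the genome, so that their counts are uncertain.

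Among the partners of MYC, Max averaged 33.7 ± 4.02 RPKM (SD, n = 30), close to the mean of Myc. It was lower with Col1a1 (-0.10 ± 0.03, limma adjusted p = 0.0412) and did not pass with Myc (0.08 ± 0.03, limma adjusted p = 0.0652). Mxd3, a MAX partner that competes with MYC, was lower with Col1a1 (-0.27 ± 0.07, limma adjusted p = 0.0155) and higher with Myc (0.22 ± 0.06, limma adjusted p = 0.0223). Mxd1, Mxd4, Mxi1, Mnt, Mga, Mlx, Mlxip and Zbtb17 passed with neither, at means between 4.78 RPKM (Mxd1) and 57.6 RPKM (Mxd4).

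Read depth and insert size differed between libraries. Steps between low values gave 117 to 196 M reads in the 14 deep libraries and 42.5 to 61.9 M reads in the 16 shallow ones, with mean insert sizes of 233 ± 14.7 and 261 ± 12.3 bases (SD). At equal Col1a1, Mki67 and insert size, 0 of the 33 genes passed for a difference between deep and shallow libraries (limma, 6 at an unadjusted p under 0.05, where 0.0955% of all tested genes were higher and 2.74% lower in the deep ones). The median difference, deep minus shallow, was 0.12 log2 units over the 33 genes and -0.002 over all tested genes. It ran from -0.12 (Nop2) to 0.31 (Utp20), and Polr1b had the smallest p (0.29 ± 0.09, limma adjusted p = 0.0648). With insert size, Nop16 (-0.14 ± 0.03, limma adjusted p = 0.0236) and Gar1 were lower, while 1.44% of all tested genes were higher and 1.59% lower. At an unadjusted p under 0.05, 14 of the 33 genes had a slope on insert size in either direction (limma). The median of the 33 slopes on insert size was -0.06, against -0.005 over all tested genes. No slope on Col1a1, Mki67 or Myc differed between deep and shallow libraries for any tested gene (limma), and 1, 0 and 4 of the genes described here had an unadjusted p under 0.05 for that difference.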

How the data were processed

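The authors deposited 1 table of values per transcript for 30 tumours, read here as RPKM. No source used here names the unit, so it was inferred from the values. Libraries were poly-A selected and fragmented, per the labels' protocols. The submitters' processing notes list CASAVA 1.7.0. The aligner, build, strand setting and treatment of reads with several matches were not given in the sources used here. Overlapping genes (such as Nop56 with Idh3b, and Bop1 with Mroh1) may therefore share reads, as may Fbl and its named pseudogene.

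Of 27902 transcripts, 26490 were named by accession with RefSeq GRCm38.p6 and 154 with GENCODE vM21. The other 1258 (1.94% of summed RPKM) and 699 small RNA transcripts were left out, and each gene was represented by its most abundant transcript. Promoters came from the same RefSeq build. Reads per library were estimated from transcripts of 150 to 2500 bases. Between 63.1 and 80.4% of low values then lay within 0.12 of a whole read number, against 24% by chance. That share does not allow counts to be recovered, and a count model was not used. Depth classes were defined from these values, as the labels do not give them.

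The scale was log2(RPKM + 1), on which changes of weakly expressed genes are understated, and only genes averaging 1 RPKM or more entered. All tested genes were fitted with limma 3.58.1 in R 4.3.3 (empirical Bayes with trend, two-sided, Benjamini-Hochberg adjustment over all tested genes, threshold 0.05). The covariates were Col1a1, Mki67 and insert size together, or Myc and insert size. The gene used as covariate was left out. The fits were also run on simulated data with independent noise for each gene. Those data did not hold the correlations between genes, and nothing is concluded from them here. The 3 pairs of genes were tested with 100000 permutations in Python 3.11.15 with scipy 1.17.1. With 1 library per animal, p-values rest on differences between animals that include technical variation. The 33 genes, the other lists and the tests were chosen with earlier results of these data known. Genes named outside the 33 had the smallest adjusted p or the highest mean in lists of ribosome biogenesis, Myc target, ribosomal protein and marker genes, were MYC partners, or were the 8 genes most and least like the mean of the 33. Further called members of the target and ribosomal protein lists were named after their values were seen. Taf1a and Miz1 were not analysed here. Alternatives were another pseudocount, filter, scaling or transcript choice, ranks, depth class, other covariates, and each tumour left out.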

Additional observations from a re-analysis of the deposited data

How the results depend on the processing

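The 7 genes lower with Col1a1 numbered between 2 and 14 when each tumour was left out in turn, 0 with ranks, 1 without animals 4036 and 4438, 0 within the deep and 0 within the shallow libraries, 2 without insert size, 19 without Mki67, 2 with Epcam, Csn2 and Acta1 added, and 2 without animals 4036 and 4459. The share of all tested genes called lower was 4.2% in the main fit, 0.419% with ranks and 3.05% without animals 4036 and 4438. That share was 0.0882% within the deep and 0.0661% within the shallow libraries, 1.12% without insert size and 7.61% without Mki67. It was 1.93% with Epcam, Csn2 and Acta1 added and 1.01% without animals 4036 and 4459. The 3 genes higher with Mki67 numbered between 0 and 7 when each tumour was left out, 7 after quantile normalization, 1 with ranks, 0 without animals 4459 and 4438, 5 with depth class as a term, 0 within the deep and 0 within the shallow libraries, 1 without insert size, 14 without Col1a1, 6 with the means of the stroma and proliferation lists in place of the single genes (none of them among the 3), 0 with Epcam, Csn2 and Acta1 added, and 0 without animals 4036 and 4459. The share of all tested genes called higher was 2.4% in the main fit, 4.16% after quantile normalization and 1.62% with ranks. It was 0.176% without animals 4459 and 4438, 3.06% with depth class as a term, 1.61% without insert size and 5.53% without Col1a1. With list means it was 5.86%, with Epcam, Csn2 and Acta1 added 1.8% and without animals 4036 and 4459 0.779%. No tested gene was called within the deep or within the shallow libraries. The 4 genes higher with Myc numbered between 1 and 7 when each tumour was left out, 2 after quantile normalization, 2 without animals 4438 and 4036, 2 within the deep and 0 within the shallow libraries, 0 with Col1a1 and Mki67 in the fit, 2 with Epcam, Csn2 and Acta1 added, and 1 without animals 4036 and 4459. The share of all tested genes higher with Myc was 3.65% in the main fit, 1.81% after quantile normalization and 3.1% without animals 4438 and 4036. It was 1.98% within the deep libraries, and no tested gene was called within the shallow ones. With Col1a1 and Mki67 it was 0.0955%, with Epcam, Csn2 and Acta1 3.92% and without animals 4036 and 4459 0.426%. The alternative without animals 4036 and 4459, and that with Epcam, Csn2 and Acta1 beside Myc, were chosen after seeing the data. Fewer libraries were used in the fits within depth classes and in those without tumours; otherwise the cause was not tested. Counts in the opposite directions were 0 under every alternative named here and with each tumour left out. With list means the slope of Bop1 on Mki67 was 0.19 and passed, against -0.00 in the main analysis. A pseudocount of 0.1, no filter or a mean of at least 5 RPKM, median ratio scaling and the sum over transcripts kept each of the 3 counts within 1.5 times. No paired analysis was possible because all tumours form 1 group and share no replicate numbers.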

Other observations

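Outside all lists, the genes whose levels lay closest to the mean of the 33 standardised genes over the 30 tumours were Actl6a, a subunit of chromatin remodelling complexes (r = 0.912), Fignl1 (0.911) and Pa2g4, a growth-regulated nucleolar protein (0.911). The chaperonin subunits Cct3, Cct8 and Cct2 followed with r = 0.893, 0.892 and 0.89. So did Mad2l1 and Ndc80, both of chromosome segregation in mitosis, with 0.89 each. The genes that ran most against it were Ripor1 (r = -0.856), Cav1, the coat protein of caveolae (-0.838), Pmp22 (-0.834), Rab43 (-0.833), Peg13 (-0.831), Tmtc1 (-0.825), Robo4, a receptor of endothelial cells (-0.822), and Sqor (-0.822). These values are descriptions over shared libraries, with no test.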
